A study of Mus musculus with 6 samples.

Results

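Ccdc80 and 9 genes of the small leucine-rich proteoglycan (SLRP) family, Dcn, Lum, Bgn, Fmod, Ogn, Aspn, Prelp, Omd and Podn, were followed in 4T1 breast tumors of BALB/c mice. They were taken by symbol, and all 10 were among the 16763 genes of the deposited table. Ccdc80 was chosen by its difference between the groups in the authors' deposited table, and the SLRP genes were put beside it as a family with results of the same comparison known, so every value for DMDD liposome against model below is a description and not a test. One group of tumors came from mice given DMDD in liposomes (lipid vesicles that carry a compound), with 3 libraries, and the other came from the model group, with 3 libraries. In both, the tumors were induced with 4T1, a cell line from a breast cancer of the same mouse strain. No library is labelled as from mice given empty liposomes or DMDD alone, so compound and carrier cannot be told apart. The labels give male animals for all libraries but no dose, time, age or number of mice. The sample descriptions name rats, while the organism field, the strain and the gene symbols are those of mouse. DMDD is given only as an abbreviation. Nothing ties a library to a mouse, so the spread between libraries may be technical.

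SLRPs are secreted proteins built around a core of leucine-rich repeats, and many carry chondroitin, dermatan or keratan sulfate chains. They sit on collagen fibrils, set fibril width and spacing, and hold growth factors such as TGF-beta in the matrix. In tumors they are made mostly by fibroblasts and other cells of the connective tissue, and soluble forms of some can act on receptors of the innate immune system or on receptor tyrosine kinases. Ccdc80 is not an SLRP: it is a secreted matrix protein of connective and fat tissue, related by domain to the sushi-repeat proteins Srpx and Srpx2.

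Levels were compared between libraries as CPM, a gene's counts relative to the scaled total of its library, and between genes as FPKM, which also divides by gene length. A library held 13037500 to 15616840 counts, so that 3 counts stood for 0.193 to 0.230 CPM. Of the 10 genes, 9 passed the filter on low counts, and Omd did not. In these bulk samples fewer cells of a type and less RNA per cell cannot be told apart. Markers of other tissues differed between libraries: fat cell markers summed to 53.6, 148 and 17.6 CPM in DMDD liposome replicates 1 to 3, against 24.8 to 34.2 CPM in the model libraries. Skeletal muscle markers summed to 129, 11.7 and 271 CPM in the DMDD liposome libraries, against 32.0 to 35.3 CPM in the model libraries, and epidermal keratinocyte markers to 11.3 to 14.2 CPM, against 265 CPM in model replicate 2 and 10.6 and 24.5 CPM in model replicates 1 and 3. The epithelial keratin genes Krt8 and Krt18 averaged 1006 and 1173 CPM in DMDD liposome libraries, against 1425 and 1500 CPM in model libraries, so the genes of an epithelial tumor were present in both groups.

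At an adjusted p threshold of 0.05, 0 of the 12891 genes tested with edgeR were called (0%), and 986 of them (7.65%) had an unadjusted p under 0.05. DESeq2 called 59 of the 14461 genes to which it gave an adjusted p (0.408%), and the authors' deposited table called 58 of 16763 (0.346%). Among the 10 genes, edgeR called 0, and DESeq2 and the authors' deposited table each called 1, Ccdc80. Since that contrast chose the genes, nothing is read from these counts. The values of the groups did not overlap, with all DMDD liposome libraries higher, for Ccdc80 and Fmod, which is 2 of the 9 genes tested against 7.21% of all genes tested. In the other direction the count was 0 of 9, against 5.66% of all genes tested.

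**Figure D1:**
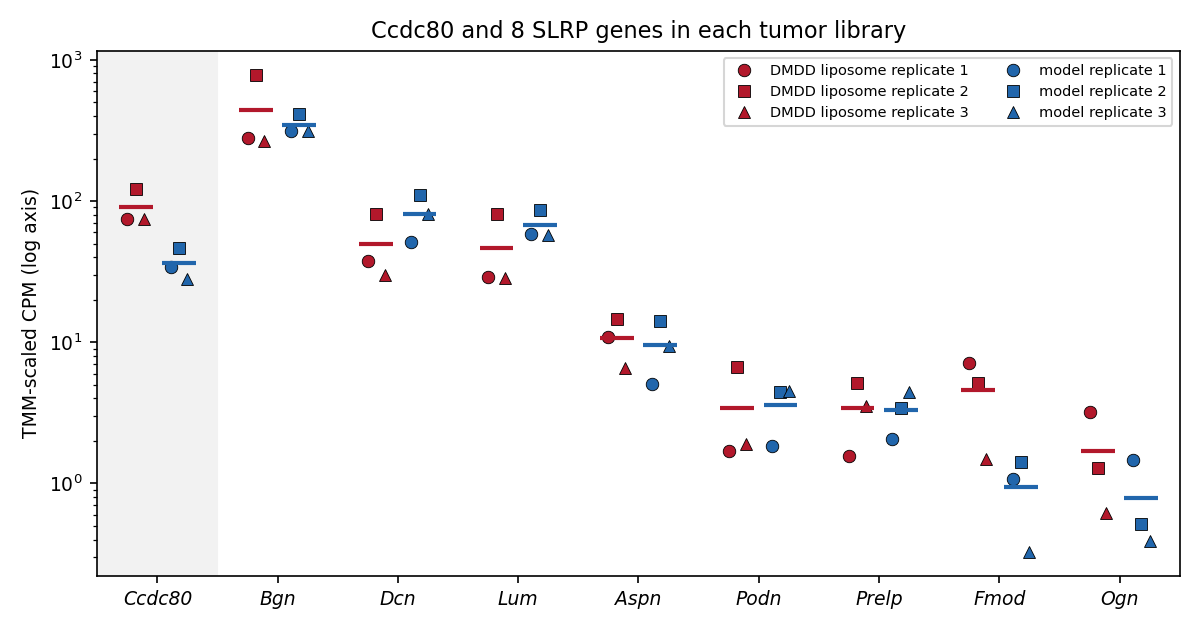
TMM-scaled CPM (log axis) of Ccdc80 and the 8 SLRP genes tested, with a point for each library and a bar at the group mean, DMDD liposome in red and model in blue. Ccdc80 lay between 74.4 and 122.5 CPM in DMDD liposome libraries and between 28.0 and 46.3 CPM in model libraries, while Dcn and Lum had lower means in DMDD liposome with overlapping points.

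Ccdc80 had 1050, 1622 and 1096 counts in DMDD liposome replicates 1 to 3, against 447, 718 and 426 in model replicates 1 to 3. Scaled, these were 74.4, 122.5 and 74.7 CPM in DMDD liposome and 34.3, 46.3 and 28.0 CPM in model. The lowest DMDD liposome library thus lay above the highest model library, and replicate 2 was the highest in both groups. The means were 90.5 ± 27.7 CPM in DMDD liposome and 36.2 ± 9.31 CPM in model (SD, n = 3 each), which gave a log2 difference of 1.32 ± 0.26 (SE). The authors' deposited table, whose fold changes run as model over DMDD liposome, lists -1.31 on the log2 scale with an adjusted p of 0.00101, and this is the value that chose the gene. Leaving out single libraries gave log2 fold changes between 1.03, without DMDD liposome replicate 2, and 1.53, without model replicate 2.

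The library highest for Ccdc80, DMDD liposome replicate 2, had the largest sum of fat cell markers too (148 CPM, with Adipoq, the adipocyte hormone adiponectin, at 126 counts). Adipoq and Plin1 were picked for mention after their values were seen. DMDD liposome replicate 3 had 74.7 CPM of Ccdc80 with Adipoq and Plin1, a lipid droplet protein of fat cells, at 0 counts, and its fat cell markers summed to 17.6 CPM, below each model library. The fat cell markers Fabp4 and Lpl had 155 and 79 counts in that library. Model replicate 1, with 34.3 CPM of Ccdc80, also had Adipoq and Plin1 at 0 counts. The part of fat tissue in the Ccdc80 difference was not tested. Macrophage markers summed to 3906, 2846 and 3159 CPM in DMDD liposome, against 2774, 2190 and 1494 CPM in model, so that their groups did not overlap either, and their part in the Ccdc80 difference was not tested. The related genes Srpx2 and Srpx measured 18.9 ± 12.3 and 4.22 ± 2.42 CPM in DMDD liposome, against 15.2 ± 5.18 and 2.98 ± 1.23 CPM in model (SD, n = 3 each). Both overlapped between the groups and neither was called, at log2 fold changes of 0.32 ± 0.46 and 0.49 ± 0.49 (SE).

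The levels of the 10 genes spanned a wide range on the FPKM scale. Bgn was the highest at a median of 127.5 FPKM over the 6 libraries, then came Dcn (33.5), Lum (23.5), Ccdc80 (14.9) and Aspn (4.34). Podn (0.982), Prelp (0.967), Fmod (0.470) and Ogn (0.367) were near or below 1 FPKM, and Omd was listed at 0 in 4 of the 6 libraries. Bgn exceeded Dcn and Dcn exceeded Lum in all 6 libraries. Further down, Ccdc80 exceeded Aspn, Aspn exceeded Podn and Ogn exceeded Omd in all 6 libraries, while the rest of the order varied between libraries. Lum was higher than Ccdc80 in 1 of 3 DMDD liposome libraries and in 3 of 3 model libraries. Prelp was higher than Fmod in 1 of 3 DMDD liposome libraries and in 3 of 3 model libraries, and Fmod was higher than Ogn in 3 of 3 DMDD liposome libraries and in 1 of 3 model libraries. Podn and Prelp could not be ordered, since each led in some libraries of both groups.

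Bgn, which encodes biglycan, a collagen-binding proteoglycan whose soluble form can signal through the receptors Tlr2 and Tlr4, had 3951, 10399 and 3917 counts in DMDD liposome and 4053, 6415 and 4778 in model. On the CPM scale it stood at 280, 786 and 267 in DMDD liposome against 311, 414 and 314 in model. DMDD liposome replicate 2 was far above all other libraries, and the remaining DMDD liposome libraries lay below every model library. The log2 fold change of 0.36 ± 0.41 (SE) rested on that library and was -0.35 without it.

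Dcn encodes decorin, which binds collagen and TGF-beta and can restrain the receptors Egfr and Met. It measured 37.6, 81.3 and 29.8 CPM in DMDD liposome, against 51.5, 110 and 80.4 CPM in model. The means were 49.6 ± 27.8 CPM in DMDD liposome and 80.5 ± 29.1 CPM in model (SD, n = 3 each), which gave a log2 difference of -0.70 ± 0.41 (SE). Within each group replicate 2 was the highest, and the groups overlapped through DMDD liposome replicate 2. Without that library the log2 fold change was -1.26, and without model replicate 2 it was -0.42.

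Lum encodes lumican, a keratan sulfate SLRP that keeps collagen fibrils thin and evenly spaced, and it lies next to Dcn in the genome. Lum stood at 29.2, 80.7 and 28.6 CPM in DMDD liposome and at 58.4, 86.0 and 57.9 CPM in model. DMDD liposome replicates 1 and 3 were below all model libraries, and replicate 2 was again the highest of each group. Its log2 fold change was -0.55 ± 0.41 (SE), with -1.23 without DMDD liposome replicate 2 and -0.30 without DMDD liposome replicate 3. Dcn and Lum followed each other across libraries, with a Pearson r of 0.94 over the 6 libraries, a description of points that share each library's depth and tissue content.

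Shares within the family were computed as well as levels. Of the summed FPKM of the 9 SLRP genes, Bgn held 74.1, 78.9 and 77.4% in DMDD liposome, against 70.2, 63.0 and 64.3% in model. Lum held 7.63, 8.01 and 8.21% in DMDD liposome, against 13.0, 12.9 and 11.7% in model. Dcn held 12.4, 10.2 and 10.8% in DMDD liposome, against 14.5, 20.8 and 20.6% in model. Fmod held 1.47, 0.400 and 0.337% in DMDD liposome, against 0.188, 0.167 and 0.0522% in model. For each of these 4 genes the groups did not overlap, with the shares of Bgn and Fmod higher and those of Dcn and Lum lower in every DMDD liposome library, although the total ran from 143 to 406 FPKM in DMDD liposome and from 183 to 272 FPKM in model. The shares of the other 5 genes, Ogn, Aspn, Prelp, Omd and Podn, overlapped between the groups. The shares are not independent of each other, since they add up to the whole, so the higher share of Bgn and the lower shares of Dcn and Lum are not separate results. In CPM the groups overlapped for Bgn, Dcn and Lum. Shares within other gene families were not computed, so how often shares do not overlap elsewhere is not known.

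**Figure D2:**
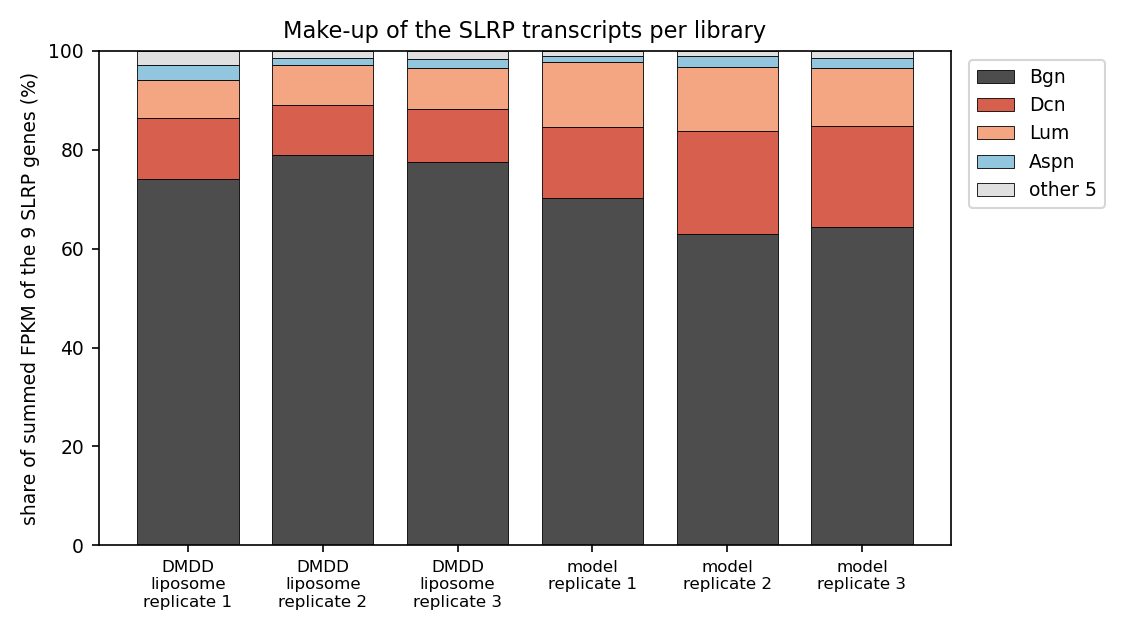
Share of the summed FPKM of the 9 SLRP genes held by Bgn, Dcn, Lum, Aspn and the other 5, in percent, with a stacked bar for each library. Bgn held 74.1 to 78.9% in the DMDD liposome libraries and 63.0 to 70.2% in the model libraries, with smaller Dcn and Lum shares in the DMDD liposome bars.

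The same genes were set against markers of the fibroblast lineage, chosen for this use after the values were seen. Relative to Col1a1, the main chain of collagen I, Bgn was at FPKM ratios of 0.444, 0.457 and 0.417 in DMDD liposome and 0.479, 0.370 and 0.415 in model. Across the 6 libraries the highest of these ratios was 1.29 times the lowest, so the level of Bgn followed that of Col1a1 in both groups, DMDD liposome replicate 2 included. Lum over Col1a1 was 0.0458, 0.0464 and 0.0442 in DMDD liposome, against 0.0889, 0.0760 and 0.0757 in model. Dcn over Col1a1 was 0.0745, 0.0591 and 0.0581 in DMDD liposome, against 0.0989, 0.122 and 0.133 in model. Both ratios were lower in all DMDD liposome libraries than in any model library. For Ccdc80 the ratio was 0.0700, 0.0423 and 0.0692 in DMDD liposome and 0.0313, 0.0245 and 0.0219 in model, so it was higher in each DMDD liposome library. Ccdc80 was chosen by its difference between these groups, and Col1a1 had a log2 fold change of 0.24 ± 0.42 (SE). The Ccdc80 ratio therefore largely carries over the difference that chose the gene and is not a separate result.

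The choice of denominator mattered for some of these. With Col1a2, Col3a1, Pdgfra and Pdgfrb, also genes of fibroblasts, in addition to Col1a1, the Ccdc80 ratio was higher in all DMDD liposome libraries for 5 of 5 denominators. The other fibroblast markers were not used as denominators. Among them Mfap5 and Fap stood at log2 fold changes of 1.22 ± 0.46 and 1.06 ± 0.39 (SE), against 1.32 ± 0.26 for Ccdc80. Twist2 went the other way, at -1.61 ± 0.63. By the FPKM of each library, the ratios of Ccdc80 to Mfap5 and to Fap overlapped between the groups. The ratio of Ccdc80 to Twist2 was higher in all DMDD liposome libraries. The 5 of 5 for Ccdc80 therefore does not hold for all fibroblast markers. Mfap5, Fap and Twist2 were named after their values were seen. The Lum ratio was lower without overlap for 4 of 5 and the Dcn ratio for 3 of 5. With Pdgfra both overlapped, at 0.749, 2.15 and 0.626 in DMDD liposome and 1.49, 2.91 and 1.93 in model for Lum. Col1a1, Col1a2 and Col3a1 each had their highest CPM in DMDD liposome replicate 2, so their ratios are not separate results. Twist2 had a lower log2 fold change than Dcn (-0.70) and Lum (-0.55), so these counts do not describe all fibroblast markers. The share of all genes tested whose ratios did not overlap was not computed. The Bgn ratio overlapped for 4 of 5 and was higher in DMDD liposome against Pdgfrb, at 12.9, 16.7 and 11.6 against 9.20, 10.2 and 9.34 in model.

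**Figure D3:**
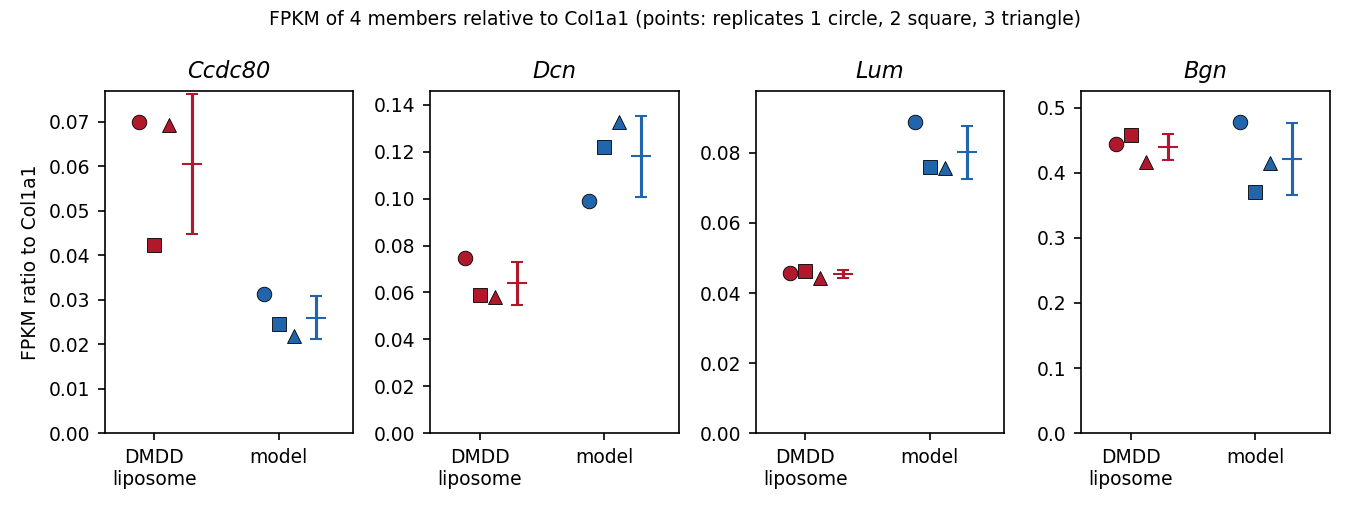
FPKM of Ccdc80, Dcn, Lum and Bgn divided by the FPKM of Col1a1, with a point for each library and the mean ± SD of the 3 libraries of each group beside them, DMDD liposome left and model right. The Bgn ratios overlap between the groups at 0.370 to 0.479, while those of Dcn and Lum are lower and those of Ccdc80 higher in every DMDD liposome library.

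Fibroblast markers as a list stood at a mean of -0.29, 0.80 and -0.35 in DMDD liposome replicates 1 to 3 and -0.13, 0.25 and -0.27 in model replicates 1 to 3, on the log2 CPM scale centred on the 6 libraries. Bgn was close to this course, at -0.38, 1.11 and -0.45 in DMDD liposome and -0.23, 0.18 and -0.22 in model. Dcn was below the list in all 3 DMDD liposome libraries, above it in model replicates 2 and 3 and close to it in model replicate 1, at -0.64, 0.47 and -0.98 in DMDD liposome and -0.19, 0.90 and 0.45 in model. Ccdc80 was above the list in all 3 DMDD liposome libraries and below it in all 3 model libraries, at 0.41, 1.13 and 0.42 in DMDD liposome, against -0.70, -0.27 and -0.99 in model. As Ccdc80 was chosen by its difference between these groups, this largely carries over that choice and is not a separate result. Of the 18 fibroblast markers 17 were tested, 14 had a positive and 3 a negative log2 fold change, 0 were called, and the median of 0.24 turned to -0.36 without DMDD liposome replicate 2. Col1a1 and Col1a2, the chains of collagen I and the highest genes of the list, stood at log2 fold changes of 0.24 ± 0.42 and 0.28 ± 0.42 (SE).

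**Figure D4:**
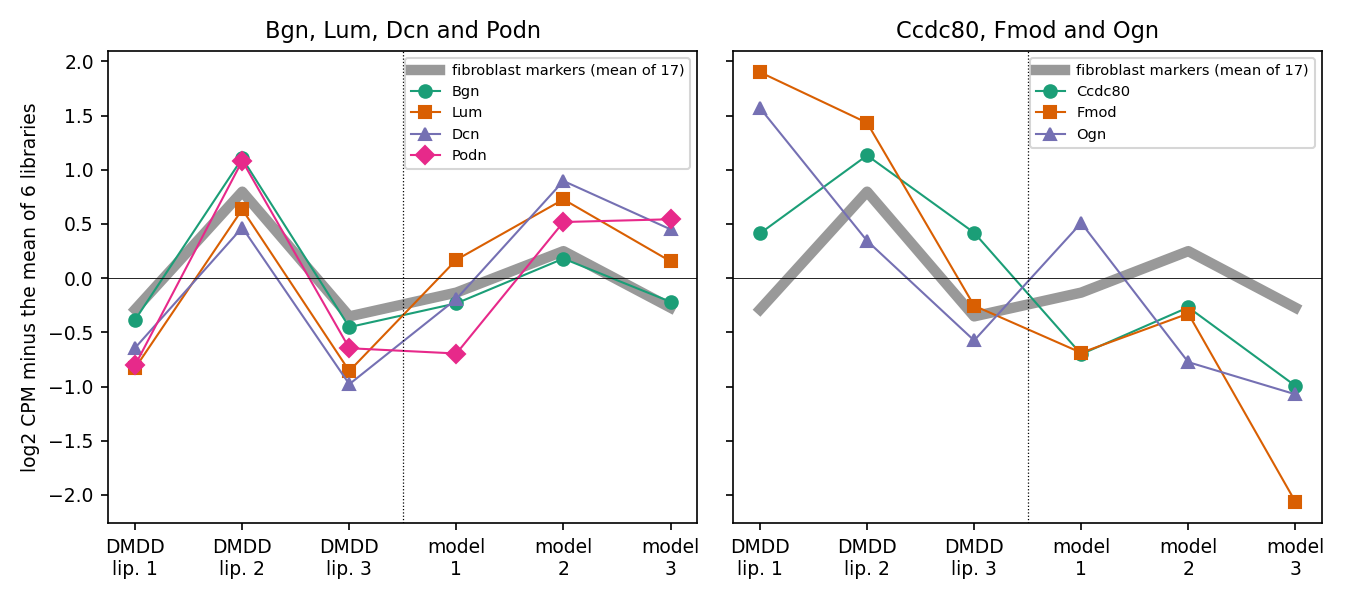
Log2 CPM of single genes minus their mean over the 6 libraries (y axis) in each library (x axis, DMDD liposome left of the dotted line), with the mean of the 17 fibroblast markers tested as a thick grey line. Bgn stays near the grey line, whereas Ccdc80 is above it in all 3 DMDD liposome libraries and below it in all 3 model libraries. Ccdc80 was chosen by its difference between these groups.

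Fmod, which encodes fibromodulin, a keratan sulfate SLRP that guides collagen fibril assembly and cross-linking, had 101, 68 and 22 counts in DMDD liposome, against 14, 22 and 5 in model. These low counts correspond to 7.15, 5.14 and 1.499 CPM in DMDD liposome and 1.07, 1.42 and 0.328 CPM in model. The lowest DMDD liposome library lay above the highest model library only after scaling, since DMDD liposome replicate 3 and model replicate 2 had the same count of 22. The log2 fold change was 2.28 ± 0.69 (SE), or 4.86-fold, and between 1.81 and 2.71 when single libraries were left out. Prelp, the gene next to Fmod, encodes a SLRP that links basement membranes to collagen. It had 22, 68 and 52 counts in DMDD liposome and 27, 53 and 68 in model, with overlapping groups and a log2 fold change of 0.03 ± 0.49 (SE). The neighbours Fmod and Prelp thus had different courses, with a Pearson r of -0.33 over the 6 libraries, where Dcn and Lum had 0.94.

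Ogn, Omd and Aspn are neighbours of each other and all lie within the span of Cenpp, a centromere protein gene with 50, 29 and 43 counts in DMDD liposome and 25, 77 and 72 in model. No strand setting is given in the sources used here, so reads of these genes and of Cenpp may not be fully told apart. Ogn, which encodes osteoglycin (mimecan), had 45, 17 and 9 counts in DMDD liposome, against 19, 8 and 6 in model. DMDD liposome replicate 1 was the highest and the groups overlapped. Its log2 fold change of 1.12 ± 0.74 (SE) was 0.28 without that library and 1.88 without model replicate 1. Aspn encodes asporin, which binds collagen and TGF-beta and has a stretch of aspartate residues. It measured 10.9, 14.6 and 6.61 CPM in DMDD liposome and 5.06, 14.1 and 9.46 CPM in model, with a log2 fold change of 0.16 ± 0.42 (SE) that was -0.14 without model replicate 1. Omd, which encodes osteomodulin, an SLRP of mineralized tissue, had 2, 0 and 0 counts in DMDD liposome and 0, 1 and 0 in model, which is at or below the level of 3 counts in every library, and no fold is given.

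Podn encodes podocan, an SLRP also made by vascular smooth muscle. It had 24, 88 and 28 counts in DMDD liposome, against 24, 69 and 69 in model. DMDD liposome replicate 2 was the highest, and the log2 fold change of -0.09 ± 0.61 (SE) was -1.01 without it. Across the 6 libraries the Pearson r of Podn was 0.85 with Dcn, 0.80 with Lum and 0.82 with Bgn, each a description. Ccdc80 had its highest r among the SLRPs with Fmod (0.85) and an r of -0.24 with Dcn.

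**Figure D5:**
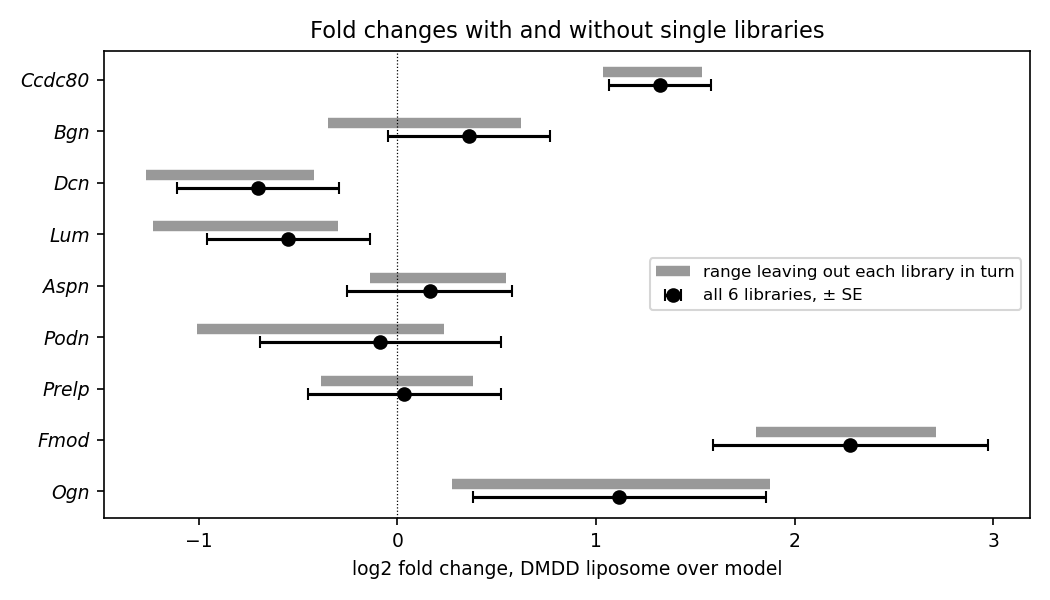
Log2 fold change of DMDD liposome over model for each gene tested (x axis), as the estimate from all 6 libraries ± SE (black) and as the range of estimates when each library is left out in turn (grey). The grey ranges of Ccdc80, Fmod, Ogn, Dcn and Lum stay on 1 side of 0, while those of Bgn, Aspn, Prelp and Podn cross it.

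The sequences upstream of 3 of these genes are shown. Bgn was highest in DMDD liposome replicate 2, and Fmod and Ogn were both highest in DMDD liposome replicate 1. A link between the sequences and these courses was not tested. Windows were found for 7 of the 10 genes in the RefSeq promoter table of build GRCm38.p6, and 250 bases before the annotated start are printed 5′ to 3′. Ccdc80, Dcn and Lum had no window. The deposited files name another build, so these coordinates belong to the promoter table alone. Capitals mark matches, on either strand, to a TATA box (TATAAA), a GC box (GGGCGG) or an AP-1 site (TGAGTCA or TGACTCA); the letters of these motifs do not overlap each other, but matches to 1 motif may overlap.
Bgn, chrX:73483351-73483600, plus strand: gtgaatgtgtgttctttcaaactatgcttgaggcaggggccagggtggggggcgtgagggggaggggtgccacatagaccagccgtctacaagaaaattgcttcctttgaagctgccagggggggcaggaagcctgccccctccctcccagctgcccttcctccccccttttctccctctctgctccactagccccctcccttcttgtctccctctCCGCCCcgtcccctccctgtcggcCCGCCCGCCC
Fmod, chr1:134037004-134037253, plus strand: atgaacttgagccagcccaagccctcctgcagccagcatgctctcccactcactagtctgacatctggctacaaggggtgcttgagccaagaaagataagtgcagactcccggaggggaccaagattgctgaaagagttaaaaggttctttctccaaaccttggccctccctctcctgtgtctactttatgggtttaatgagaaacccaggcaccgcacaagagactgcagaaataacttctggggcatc
Ogn, chr13:49607765-49608014, plus strand: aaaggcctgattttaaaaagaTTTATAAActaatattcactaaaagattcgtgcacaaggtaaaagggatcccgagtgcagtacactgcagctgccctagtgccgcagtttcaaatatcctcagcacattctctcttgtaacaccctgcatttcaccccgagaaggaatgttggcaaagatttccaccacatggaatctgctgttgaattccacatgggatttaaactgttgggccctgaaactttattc
The Bgn window held 3 GC box matches and no TATA box, with 64.4% G and C. The Ogn window held 2 overlapping TATA box matches and no GC box, with 42.0% G and C, and the Fmod window held none of the motifs searched, with 51.2% G and C. Of all 32851 windows of the same length in the table, 12.4% held a TATA box match, 32.7% a GC box match and 4.46% an AP-1 match. A match describes these letters only.

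Other members of the SLRP family, the enzymes that build their chains and the proteins they bind gave 0 calls, against a median log2 fold change of 0.01 over the 12891 genes tested, of which 6602 were positive. Of 8 other SLRP genes, 3 were tested, with a median of 0.36 that was 0.14 without model replicate 1 and 0.56 without model replicate 3: Podnl1, a relative of Podn, stood at a log2 fold change of 0.36 ± 0.22 (SE; 49.7 ± 5.08 CPM in DMDD liposome, 38.8 ± 11.8 CPM in model), Tsku, tsukushi, at -0.03 ± 0.15, and Ecm2, which adjoins Aspn in the genome and was named after its values were seen, at 0.81 ± 0.33. Ecm2 had 42, 37 and 32 counts in DMDD liposome, against 20, 28 and 18 in model. Chad, Nyx, Optc, Kera and Epyc, which belong mainly to cartilage and the eye, had at most 10 counts in any library.

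Collagens and other fibril partners of the SLRPs had 9 positive and 7 negative log2 fold changes among 16 tested, with a median of 0.09. Fn1, fibronectin, measured 10630 ± 1104 CPM in DMDD liposome and 9581 ± 3542 CPM in model, and Col1a1 2440 ± 1532 CPM in DMDD liposome and 2062 ± 603 CPM in model (SD, n = 3 each). Their SDs exceeded the difference between the groups. Without DMDD liposome replicate 2, the library highest for Bgn, the median of this list was -0.44. The 2 sushi-repeat relatives of Ccdc80 had a median of 0.40, which was -0.21 without the same library.

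Among TGF-beta ligands and their binding proteins, 9 of 11 tested were positive and 2 negative, with a median of 0.22 that was 0.085 without model replicate 2 and 0.43 without model replicate 1. Ltbp3 and Ltbp1, which anchor latent TGF-beta in the matrix, measured 1813 ± 235 and 503 ± 122 CPM in DMDD liposome, against 1186 ± 538 and 467 ± 116 CPM in model. Receptors that bind SLRPs had 7 positive and 5 negative of 12, with a median of 0.19 that was 0.064 without DMDD liposome replicate 2. Itgb1, an integrin subunit, stood at -0.05 ± 0.14 (SE) and Lrp1, an endocytic receptor that takes up decorin, at 0.36 ± 0.29. Tlr2 and Tlr4, the biglycan receptors, and Itga2 and Cd44, both with negative values, were named after their values were seen. Tlr2 had 643, 628 and 695 counts in DMDD liposome, against 562, 539 and 433 in model, with a log2 fold change of 0.40 ± 0.16 (SE). Tlr4 had 543, 583 and 713 counts in DMDD liposome, against 497, 474 and 535 in model, with a log2 fold change of 0.34 ± 0.14 (SE). The CPM of Tlr2 and Tlr4 did not overlap between the groups. Of the 12 receptors, 2 were higher and 0 lower in DMDD liposome without overlap, against 7.21% and 5.66% of all genes tested. Since Tlr2 and Tlr4 were named after their values were seen, nothing is read from this. Itga2, a subunit of a collagen-binding integrin, had 1215, 1196 and 1452 counts in DMDD liposome, against 1282, 2020 and 2653 in model, with overlapping CPM and a log2 fold change of -0.55 ± 0.20 (SE). Cd44, a hyaluronan receptor, had 5945, 6906 and 9253 counts in DMDD liposome, against 7084, 11480 and 18088 in model, with overlapping CPM and a log2 fold change of -0.65 ± 0.29 (SE). None of these 4 was called.

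Genes of chondroitin and dermatan sulfate synthesis, which make the chains of Bgn and Dcn, had 9 positive and 11 negative values among 20, with a median of -0.06 (-0.17 to 0.05 when single libraries were left out). Chsy1, a chondroitin polymerase, measured 138 ± 13.8 CPM in DMDD liposome and 180 ± 18.4 CPM in model, without overlap and with a log2 fold change of -0.38 ± 0.12 (SE). Chpf, which works with it, stood at 0.16 ± 0.12. Of the 20 genes, 0 were higher and 2 lower in DMDD liposome without overlap, against 7.21% and 5.66% of all genes tested. Keratan sulfate synthesis, for the chains of Lum and Fmod, had 4 positive and 3 negative values among 7 tested, with a median of 0.01 (-0.04 to 0.0997 when single libraries were left out). Fut8, which adds the core fucose, stood at -0.07 ± 0.12 and B4galt1, a galactosyltransferase, at 0.01 ± 0.13. Proteases that cleave SLRPs had 7 positive and 5 negative of 12 with a median of 0.01, and Bmp1, which processes collagens and biglycan, and Mmp14, a membrane protease, stood at 0.0029 ± 0.12 and -0.04 ± 0.12. The median of this list was -0.41 without DMDD liposome replicate 2.

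The other marker lists are given for the same libraries, each with its median log2 fold change, the range of that median when single libraries were left out, and its 2 genes of largest mean CPM, none of which was called. Pericyte and smooth muscle markers had 10 positive and 2 negative values of 12, with a median of 0.38 that was 0.072 without DMDD liposome replicate 2 and 0.79 without model replicate 1. Smtn, a cytoskeletal protein of smooth muscle, measured 175 ± 19.4 CPM in DMDD liposome and 213 ± 30.6 CPM in model, and Acta2, smooth muscle actin, 142 ± 105 CPM in DMDD liposome and 61.7 ± 15.2 CPM in model, so the highest genes of this list lay in opposite directions. Endothelial markers had 9 of 10 positive, with a median of 0.44 (0.24 to 0.82). The endothelial adhesion genes Pecam1 and Cdh5 stood at 0.21 ± 0.22 and 0.32 ± 0.36 (SE). Macrophage markers had 9 of 10 positive, with a median of 0.48 (0.26 to 0.67), and Lyz2, a lysozyme, and C1qa, a complement subunit, stood at 0.99 ± 0.39 and 0.50 ± 0.26.

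Fat cell markers had 6 of 6 tested positive, with a median of 2.03 that was 0.33 without DMDD liposome replicate 2. The lipid handling genes Fabp4 and Lpl stood at 1.22 ± 0.57 and 0.51 ± 0.67 (SE). Skeletal muscle markers had 6 of 7 tested positive, with a median of 2.89 (2.23 to 4.02), and Acta1, skeletal muscle actin, and Tnnt3, a troponin, stood at 3.31 ± 1.44 and 0.53 ± 0.49. Acta1 had 633, 11 and 1425 counts in DMDD liposome, against 164, 25 and 9 in model, so DMDD liposome replicate 2, the library highest for Bgn, was low for it.

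Bone, cartilage and tendon markers, whose tissues are rich in Fmod, Omd and Prelp, had 3 positive and 3 negative of 6 tested, with a median of 0.15 (-0.0057 to 0.34). Ibsp, bone sialoprotein, had 1753, 1102 and 474 counts in DMDD liposome, against 558, 657 and 269 in model, with overlapping groups and a log2 fold change of 1.22 ± 0.51 (SE). Scx, a transcription factor of tendon, stood at -0.01 ± 0.13. Of genes named after their values were seen, Runx2, a transcription factor of bone-forming cells, had 651 to 682 counts in DMDD liposome and 785 to 1142 in model. Its log2 fold change was -0.40 ± 0.14 (SE). Sp7 and Bglap, other genes of these cells, had no more than 2 counts in any library. Sox9 and Col2a1 of the same list stood at -0.77 ± 0.21 and 1.05 ± 0.51. Of the 6 tested, the groups did not overlap for 1 higher and 2 lower in DMDD liposome, against 7.21% and 5.66% of all genes tested. None of the list was called.

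Epithelial tumor cell markers had 11 of 12 negative, with a median of -0.58 (-0.80 to -0.45), and Krt18 and Krt8 stood at -0.36 ± 0.20 and -0.50 ± 0.22 (SE). Epidermal keratinocyte markers had 3 of 3 tested negative, with a median of -0.96 that was -0.01 without model replicate 2, and the keratin genes Krt15 and Krt10 stood at -0.96 ± 0.55 and -1.60 ± 0.81. Mast cell markers had 5 of 6 tested negative, with a median of -2.17 (-3.81 to -1.76). Kit, the stem cell factor receptor, stood at 0.59 ± 0.28 and Hdc, which makes histamine, at -1.90 ± 0.55. The part of these cell types in the values of Ccdc80 and the SLRP genes was not tested.

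The genes most like 3 of the members in their course over the 6 libraries were found among 9565 genes with a mean of at least 10 CPM, by Pearson r of log2 CPM. For Ccdc80 these were Hexa (0.99), a lysosomal hexosaminidase subunit, Dpp7 (0.98), a lysosomal peptidase, and Atp1b3 (0.98), a sodium pump subunit. Hexa measured 125, 154 and 126 CPM in DMDD liposome, against 87.9, 94.6 and 79.7 CPM in model, without overlap. Since Hexa was found by its likeness to Ccdc80, whose groups do not overlap, this is not a separate result. For Dcn they were Mrgbp, Dcun1d5 and Hdgf, with r from 0.988 to 0.998, and for Lum they were Atp6v1g1, Timm17a and Eif4a3, with r from 0.98 to 0.99. Pearson r does not measure the size of a difference. Mrgbp ran from 18.6 to 25.15 CPM over the 6 libraries, while Dcn ran from 29.8 to 110 CPM. These values describe 6 points that share each library's depth and tissue content.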

How the data were processed

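Per the labels' protocols, total RNA was taken from tumors with Trizol, and the 6 libraries were built with NEBNext Ultra reagents. The deposited table gives raw counts for each gene (per the file headers). The same table holds a deposited normalized signal, which in each library is at a constant ratio to the counts, FPKM values made by the authors, and the authors' log2 fold changes (model over DMDD liposome) with p-values and adjusted p-values. The submitters' processing notes name DESeq2 and genome build mm9. Aligner, counter, annotation and strand: not given in the sources used here.

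The counts went into edgeR 4.0.16 (R 4.3.3), where filterByExpr (minimum count 10, minimum total 15) kept 12891 genes, libraries were scaled by TMM, and the two-sided quasi-likelihood test was adjusted over all genes tested (threshold 0.05). SEs were taken from the F statistic. Log2 CPM used a prior count of 2. The test was checked on simulated counts for known changes. Levels between genes used the deposited FPKM. No replicate pair was a duplicate: chi-square per degree of freedom was at least 14.8. Alternatives were DESeq2 1.42.0, its size factors, no filter, a threshold of 0.01, a replicate block, TPM in place of FPKM for the shares, and leaving out each library. Promoter windows came from RefSeq tables of GRCm38.p6. The replicates are separate samples per the labels, but nothing says they came from separate animals, so a p-value reflects the spread of these samples alone, which may be technical. Members and lists were chosen with earlier results of these data known. From each list the 2 tested genes with the largest mean CPM were named, as no gene was called. Further genes are marked where they were chosen after their values were seen.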

Additional observations from a re-analysis of the deposited data

How the results depend on the processing

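With DESeq2's Wald test, 59 genes were called over all genes tested, against 0 with edgeR, and Ccdc80 was among them at a log2 fold change of 1.31. DESeq2's size factors, no filter on low counts and a threshold of 0.01 left edgeR's count at 0, and neither size factors nor the missing filter turned the sign of a member. The replicate numbers were not taken as pairs, since the deviations of same-numbered libraries correlated at 0.0876, 0.114 and 0.121, although each library correlated best with its own number. With a replicate block 0 genes were called, and Prelp stood at -0.032.

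Leaving out each library in turn gave 0 to 112 calls, with 112 without model replicate 1. The number of genes with a positive value, 6 of 9, ran from 3 to 7 and the number with a negative one, 3 of 9, from 2 to 6, with 3 and 6 without DMDD liposome replicate 2. Bgn ran from -0.35 to 0.62, Aspn from -0.14 to 0.55, Prelp from -0.39 to 0.38 and Podn from -1.01 to 0.24, each changing sign. Ccdc80 ran from 1.03 to 1.53, Fmod from 1.81 to 2.71, Ogn from 0.28 to 1.88, Dcn from -1.26 to -0.42 and Lum from -1.23 to -0.30. The cause was not tested. The shares of Bgn, Dcn and Lum in SLRP FPKM are the same in TPM by construction. At the counts of Ogn and Omd, counting error limits any statement.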
